A study of Mus musculus with 11 samples.

Results

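Trp53, the gene for the transcription factor p53, and 9 genes that p53 switches on directly were followed in mouse embryonic stem cells (ESCs) transfected with siRNAs against the cap methyltransferase CMTR1. The 10 genes were listed by name, as Trp53 and well-known direct targets, and each was found by its Ensembl identifier among the 54838 genes counted. All 10 also belonged to the 16073 genes with more than 1 CPM (a gene's reads scaled to the library total) in at least 4 libraries, which were the genes tested.

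The cells were of the E14 line, an established line of mouse ESCs, grown on gelatin in medium with serum replacement and LIF, the cytokine that maintains self-renewal. Total RNA was taken 36 h after transfection with a scrambled control siRNA (3 libraries), CMTR1 siRNA 1 (4 libraries) or CMTR1 siRNA 2 (4 libraries), freed of ribosomal RNA and sequenced. An siRNA acts for days and seldom removes its target fully, and a single cell line was used, which limits the libraries as a model of CMTR1 loss. The labels do not say whether libraries of a group came from separate cultures, and the methods give 3 biological replicates where each siRNA has 4 libraries, so 1 library of each siRNA may not be a separate replicate. Thus p-values measure the spread between these libraries, which may be technical. Reads counted in genes ran from 6738478 to 8382318 per library, and group medians were 7876141 (control), 7526822.5 (siRNA 1) and 7758091 (siRNA 2).

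p53 is held at a low level by the ubiquitin ligase MDM2, and when DNA is damaged or ribosome assembly fails this hold is released and p53 activates genes for cell cycle arrest, repair and apoptosis. Several of its targets, MDM2 among them, act back on p53 and restrain it. Mouse ESCs are known for abundant p53, much of it in the cytoplasm, for a weak arrest in G1 and for differentiation or death after damage.

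Cmtr1 itself was measured first, since it is the gene that the siRNAs were designed against. Its level was 21.3, 21.7 and 17.9 CPM in control libraries 1 to 3, then 21.1, 21.3, 16.2 and 18.0 CPM in siRNA 1 libraries 1 to 4, then 15.6, 16.8, 16.4 and 19.5 CPM in siRNA 2 libraries 1 to 4. The lowest siRNA libraries lay under every control library, but in both comparisons the groups overlapped. The log2 fold change against control was −0.088 with siRNA 1 (adjusted p = 0.743) and −0.25 with siRNA 2 (95% interval −0.46 to −0.031, adjusted p = 0.144), by edgeR's quasi-likelihood test with Benjamini-Hochberg adjustment over all genes tested. Directions below therefore refer to the libraries as labelled, and a gene is said to be called where this adjusted p was at most 0.05. The paper reports that CMTR1 fell rapidly after siRNA transfection and that histone and ribosomal protein RNA was reduced. Its statement on CMTR1 does not name RNA or protein, and it lists both siRNAs for western blots. CMTR1 protein was not measured here.

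The label of embryonic stem cells was checked against marker genes. All 10 ESC markers were expressed, with Lin28a the most abundant, and Pou5f1, which encodes OCT4, had means of 484.0, 434.4 and 473.1 CPM in control, siRNA 1 and siRNA 2 libraries. The summed level of the ESC markers was 2533 to 2638 CPM in control, 2194 to 2392 CPM with siRNA 1 and 2295 to 2450 CPM with siRNA 2. Of the 10 markers, 6 were called lower with siRNA 1 and 4 with siRNA 2, where 1.97% and 3.55% of all genes tested were called lower, Nanog among them with both, at means of 85.7, 57.8 and 58.8 CPM. With siRNA 1 libraries 3 and 4 alone, 3 were called lower. Between the siRNAs, Esrrb was called lower with siRNA 2 (−0.21, adjusted p = 0.0312) and Lin28a higher (0.15, adjusted p = 0.0229), and both calls ended with libraries 3 and 4 alone (−0.17 and 0.060) and without siRNA 1 library 2 (−0.22 and 0.16) or 4 (−0.21 and 0.14) or siRNA 2 library 1 (−0.18 and 0.13) or 2 (−0.17 and 0.11), as did that of Esrrb with DESeq2 (−0.21) and without siRNA 1 library 3 (−0.16) and that of Lin28a without siRNA 1 library 1 (0.14). Fibroblast markers summed to 39.2 to 48.6 CPM in control, 38.1 to 51.6 CPM with siRNA 1 and 49.2 to 55.1 CPM with siRNA 2, Pdgfra being the most abundant, while Lum and Postn stayed at or under 0.142 CPM in every library. Markers of the germ layers and trophoblast summed to 83.7 to 86.8, 85.4 to 102.8 and 74.1 to 87.6 CPM in the same order, with Sox1 the most abundant. Markers of other cell types also differed between the siRNAs. In this comparison 4.49% of all genes tested were called higher with siRNA 2 and 2.96% lower. Of the 6 fibroblast markers tested, Col1a1 (0.76, adjusted p = 2.05e-05) and Dcn (0.99, adjusted p = 0.00395) were called higher with siRNA 2. Values of 4 of the 6 were above 0, while Pdgfra (−0.18) and Col3a1 (−0.57) were below 0 and not called. Of the 9 germ layer markers tested, Pax6 was called lower with siRNA 2 (−0.68, adjusted p = 0.000312), at means of 10.4, 13.5 and 8.44 CPM in control, siRNA 1 and siRNA 2. With libraries 3 and 4 alone Col1a1 kept its call, and Dcn (0.98) and Pax6 (−0.59) did not. Esrrb, Lin28a, Col1a1, Dcn and Pax6 are named after their values were seen. Whether stem cell, fibroblast or germ layer markers had a part in the values of the p53 targets was not tested. In RNA from whole cultures, fewer cells expressing a gene and less RNA per cell cannot be told apart.

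Libraries of a siRNA group were not equally alike. The chi-square per gene between the reads of a pair of libraries, which is about 1 where only counting noise separates them, was 1.31 for siRNA 1 libraries 3 and 4 but 2.94 for siRNA 1 libraries 1 and 3 and 2.93 for siRNA 2 libraries 2 and 3. With siRNA 1, 1319 genes were called from libraries 1 and 2 alone and 348 from libraries 3 and 4 alone, against 751 from all 4. The pairs are not clean classes, since siRNA 2 library 4 was nearer to library 1 (1.95) than to library 3 (2.17) and labels name no batch. Where a call of one of the 10 genes differed with libraries 1 and 2 alone or with libraries 3 and 4 alone, a choice made after the data were seen, this is said beside it.

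Levels were compared between genes per kilobase of exon. In control libraries Trp53 stood highest at a mean of 75.4 CPM per kb, followed by Ccng1 (65.0), Bax (47.4), Mdm2 (35.8), Aen (26.9), Trp53inp1 (25.8), Phlda3 (25.8), Zmat3 (18.4), Bbc3 (12.4) and Cdkn1a (11.5). Neighbours in this order were separate in their control libraries except Aen with Trp53inp1 and Trp53inp1 with Phlda3, which overlapped. Of all genes tested, 96.8% lay below Trp53 and 71.5% below Cdkn1a, so even the lowest of the 10 was well expressed. With either siRNA the mean of Cdkn1a was above that of Bbc3, at 16.2 against 12.8 CPM per kb with siRNA 1 and 15.2 against 12.3 CPM per kb with siRNA 2, though with siRNA 1 the lowest Cdkn1a library (14.8) lay just under the highest Bbc3 library (14.9).

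Against control, 3 of the 10 genes were called higher with siRNA 1 (Cdkn1a, Trp53inp1 and Phlda3), where 2.71% of all genes tested were called higher, and 1 was called lower (Ccng1), where 1.97% were. With siRNA 2, 4 of the 10 were called, all of them higher (Cdkn1a, Mdm2, Ccng1 and Zmat3), where 6.17% of all genes were called higher and 3.55% lower. The direct comparison of siRNA 2 with siRNA 1 called 1 of the 10, Ccng1, which was higher with siRNA 2, where 4.49% of all genes were called higher and 2.96% lower. The libraries did not overlap with those of control for 6 of the 10 genes with siRNA 1 (15.5% of all genes) and for 3 of the 10 with siRNA 2 (19.4%), and siRNA 2 was separate from siRNA 1 for 1 of the 10 (11.8%). The median log2 fold change of the 10 was 0.11 with siRNA 1 and 0.094 with siRNA 2, beside 0.024 and 0.029 over all genes tested, and −0.045 for siRNA 2 against siRNA 1, beside 0.0018. Since both siRNAs were set against the same 3 control libraries, likeness between them is not an independent observation.

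These counts depended on scaling and on single libraries. With TMM factors, which scale libraries to a common set of genes, 1 gene was called higher and 1 lower with siRNA 1 (Cdkn1a and Ccng1) and 2 higher with siRNA 2 (Cdkn1a and Zmat3). Of all genes tested, 2.15% were then called higher and 2.49% lower with siRNA 1, and 4.53% and 4.57% with siRNA 2. DESeq2 called Cdkn1a and Ccng1 with siRNA 1, and 1 gene, Cdkn1a, with siRNA 2, where it called 1.24% of all genes higher and 2.00% lower with siRNA 1, and 2.54% and 3.42% with siRNA 2, and gave 4674 and 3740 genes no adjusted p. With siRNA libraries 3 and 4 alone, 2 genes were called with siRNA 1 and 1 with siRNA 2, and with libraries 1 and 2 alone the counts were 4 and 5. Of all genes in those fits, 1.10% were called higher and 1.14% lower with libraries 3 and 4 of siRNA 1, 4.16% and 2.41% with those of siRNA 2, 5.00% and 3.51% with libraries 1 and 2 of siRNA 1, and 7.59% and 5.09% with those of siRNA 2. The siRNA 1 count was 2 without control library 1, control library 3 or siRNA 1 library 2. The siRNA 2 count was 2 without control library 2 and 1 without control library 3 or siRNA 2 library 1. Between the siRNAs the count was 2 without siRNA 1 library 4, siRNA 2 library 1 or siRNA 2 library 2. Of all genes in those fits, 2.06%, 1.55% and 1.39% were called higher with siRNA 1 and 1.66%, 1.27% and 1.27% lower, in this order. The siRNA 2 shares were 3.47%, 3.22% and 4.06% higher and 2.25%, 1.83% and 2.24% lower. Those between the siRNAs were 3.45%, 2.98% and 3.50% higher and 2.30%, 1.72% and 2.45% lower. Cdkn1a kept its call and direction with both siRNAs under all 21 alternatives, and so did Ccng1 with siRNA 1 and between the siRNAs.

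**Figure D1:**
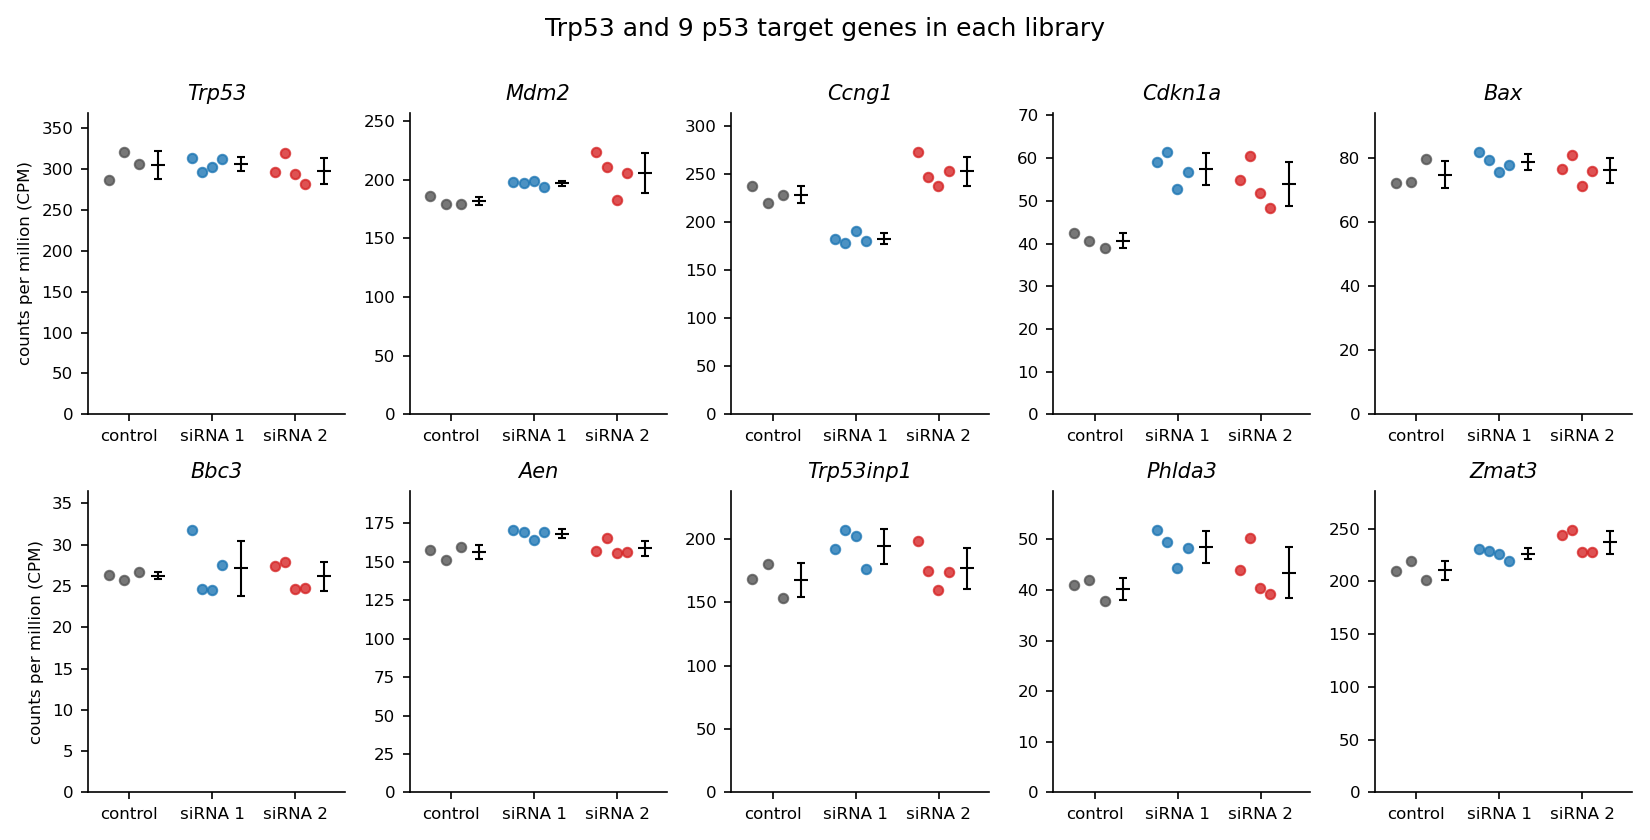
Level in CPM (vertical axes, from 0) of each of the 10 genes in every library, with points for libraries and bars for the mean ± SD of control (n = 3), siRNA 1 (n = 4) and siRNA 2 (n = 4). Cdkn1a lies at 38.9 to 42.5 CPM in control and at 48.3 CPM or more in every siRNA library, and Ccng1 is lowest with siRNA 1 and highest with siRNA 2.

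Promoters are shown because p53 acts by binding them. Those printed, picked after the calls were seen, are of the targets whose best match fit at 17 or more of 20 bases, and no link between match and change was tested. The p53 full site is a pair of half-sites, 10 bases each, here with no spacer between them, and as it is its own reverse complement both strands are covered by a single search. Promoters, taken from 250 bases before to 50 after a gene's start, were matched for 8 of the 10 genes in RefSeq (GRCm38.p6). The best match in each is printed 5′ to 3′ on the gene's strand, with the bases that fit the full site in capitals, and with misfits and the 5 bases on either side in lower case. The stretches are chr17:29090923-29090952 (plus strand) for Cdkn1a, chr11:40755457-40755486 (minus) for Ccng1, chr7:45467085-45467114 (minus) for Bax, chr7:16309481-16309510 (plus) for Bbc3 and chr7:78895932-78895961 (plus) for Aen.
Cdkn1a: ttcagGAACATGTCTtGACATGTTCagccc
Ccng1: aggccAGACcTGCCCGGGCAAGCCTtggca
Bax: tgacaAGcaTAtCCCAGGCAAGCTTtgaac
Bbc3: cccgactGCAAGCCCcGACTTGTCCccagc
Aen: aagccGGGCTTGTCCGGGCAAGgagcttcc
The Cdkn1a and Ccng1 stretches fit at 19 of 20 bases, and such a match, with at most 1 misfit, was present in 29 of 32851 promoters (0.0883%). Bax, Bbc3 and Aen fit at 17 of 20 bases, as did the promoter of Trp53, a match that good or better being present in 6.29% of all promoters. In Mdm2 and Phlda3, each called with an siRNA, the best match fit at 15 of 20 bases within this window. The Cdkn1a match ran from position −51 to −32 relative to the more upstream of 2 RefSeq starts, and that of Ccng1 from −195 to −176 relative to its start. A match describes letters in the reference and was not measured as binding here.

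Trp53 (ENSMUSG00000059552, chr11:69580359-69591873, plus strand) encodes p53 itself. It was at 287.2, 321.1 and 306.2 CPM in control, at 313.6, 296.7, 303.0 and 312.5 CPM with siRNA 1 and at 297.0, 319.5, 294.0 and 281.4 CPM with siRNA 2. The 3 groups lay on top of one another, with control spanning most of the range. Means were 304.8 ± 17.0 (SD, n = 3), 306.4 ± 8.03 (n = 4) and 298.0 ± 15.8 CPM (n = 4). Trp53 had a log2 fold change of 0.0072 with siRNA 1 (95% interval −0.088 to 0.10, adjusted p = 0.962) and −0.033 with siRNA 2 (−0.13 to 0.063, adjusted p = 0.738). Trp53 mRNA was thus not shown to differ between the groups. Without control library 1 the siRNA 1 value was −0.034, and without control library 2 the siRNA 2 value was 0.0068, so neither direction was fixed. p53 protein and its modification, through which p53 is mainly controlled, were not measured here.

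Mdm2 and Ccng1 are targets whose proteins restrain p53 in turn. Mdm2 (ENSMUSG00000020184, chr10:117688875-117710758, minus strand), the ubiquitin ligase that marks p53 for degradation, was at 185.9, 179.6 and 179.7 CPM in control, at 197.8, 197.5, 198.9 and 193.7 CPM with siRNA 1 and at 223.6, 210.7, 182.9 and 206.0 CPM with siRNA 2. All siRNA 1 libraries lay above control by a small margin, whereas with siRNA 2 libraries 1, 2 and 4 lay higher still and library 3 fell among the control values. Mdm2 rose with siRNA 2 by a log2 fold change of 0.18 (SE 0.051, 1.13-fold, adjusted p = 0.0189, two-sided exact permutation p = 0.114), and its siRNA 1 value was 0.12 (SE 0.051, adjusted p = 0.221, two-sided exact permutation p = 0.0571, the smallest that 3 against 4 libraries allow). No difference between the siRNAs was called for Mdm2 (log2 fold change 0.063, 95% interval −0.032 to 0.16, adjusted p = 0.486). The siRNA 2 call ended without control library 2 (0.17, adjusted p = 0.0848), without control library 3 (0.17, adjusted p = 0.0837) and without siRNA 2 library 1 (0.14, adjusted p = 0.114). It also ended with TMM factors (0.16), with DESeq2 (0.15) and with siRNA libraries 3 and 4 alone (0.099), where the value between the siRNAs was −0.012, and over the 21 alternatives the adjusted p ran from 0.000154 to 0.306.

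Ccng1 (ENSMUSG00000020326, chr11:40748552-40755311, minus strand) encodes cyclin G1, which recruits a phosphatase to MDM2 and so restrains p53. It was at 237.3, 219.7 and 228.1 CPM in control, at 182.4, 177.8, 190.3 and 180.2 CPM with siRNA 1 and at 272.7, 247.2, 237.7 and 252.6 CPM with siRNA 2. The siRNA 1 libraries were the lowest and the siRNA 2 libraries the highest, and none of the 3 groups overlapped another, though siRNA 2 library 3 was just above the highest control. Means were 228.4 ± 8.82 (SD, n = 3), 182.7 ± 5.42 (n = 4) and 252.6 ± 14.8 CPM (n = 4). With siRNA 1 Ccng1 fell, with a log2 fold change of −0.32 (SE 0.049, 95% interval −0.42 to −0.22, 0.80-fold, adjusted p = 2.39e-05). With siRNA 2 the value was 0.14 (SE 0.048, 95% interval 0.048 to 0.24, 1.11-fold, adjusted p = 0.0461). The siRNAs differed from each other by 0.47 (SE 0.045, 95% interval 0.38 to 0.56, 1.38-fold, adjusted p = 8.62e-10), with a two-sided exact permutation p of 0.0286, the smallest that 4 against 4 libraries allow. In the same comparison Col1a1 (0.76), Dcn (0.99) and Pax6 (−0.68) were called, as were the ESC markers Esrrb (−0.21) and Lin28a (0.15). The fibroblast markers Pdgfra (−0.18) and Col3a1 (−0.57) were below 0 and not called.

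The lower level of Ccng1 with siRNA 1 held under each of the 21 alternatives, from −0.35 to −0.29, and so did the difference between the siRNAs, from 0.40 to 0.53. The higher level with siRNA 2 was less firm. Its call ended without control library 2 (0.12, adjusted p = 0.227), control library 3 (0.14, adjusted p = 0.133), siRNA 2 library 1 (0.11, adjusted p = 0.214) or siRNA 2 library 4 (0.14, adjusted p = 0.0700), and without siRNA 1 library 2 or 4, which enter through the shared spread (adjusted p = 0.0584 for each). It also ended with TMM factors (0.12, adjusted p = 0.124) and DESeq2 (0.12, adjusted p = 0.188), with no filter, with a fit of only the groups compared, with a block for replicate number, with Gm26917 left out of library sizes and with siRNA libraries 3 and 4 alone (0.10), and the adjusted p ran from 0.00678 to 0.253 over the alternatives.

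Cdkn1a (ENSMUSG00000023067, chr17:29090976-29100727, plus strand) encodes p21, the inhibitor of cyclin-dependent kinases through which p53 halts the cell cycle. It was at 42.5, 40.6 and 38.9 CPM in control, at 59.1, 61.4, 52.7 and 56.7 CPM with siRNA 1 and at 55.0, 60.6, 51.9 and 48.3 CPM with siRNA 2, from 289 to 508 reads per library. Every siRNA library was above every control library, and the siRNA 1 and siRNA 2 libraries overlapped, with siRNA 2 library 4 nearest to control. Means were 40.7 ± 1.82 (SD, n = 3), 57.5 ± 3.73 (n = 4) and 53.9 ± 5.22 CPM (n = 4), 41.3% and 32.6% above control. Cdkn1a rose with siRNA 1 by a log2 fold change of 0.50 (SE 0.074, 95% interval 0.35 to 0.65, adjusted p = 1.59e-05). The rise with siRNA 2 was 0.41 (SE 0.074, 95% interval 0.26 to 0.56, adjusted p = 0.00019). Between the siRNAs the value was −0.091 (95% interval −0.22 to 0.041, adjusted p = 0.463). Over the 21 alternatives it ran from 0.43 to 0.57 with siRNA 1 and from 0.30 to 0.51 with siRNA 2, the lower ends coming with siRNA libraries 3 and 4 alone. Of the exon bases of Cdkn1a, 7.68% are overlapped by AC167363.2 on the other strand, and the strand setting of the counting is not given in the sources used here, so reads of these genes there cannot be told apart.

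Bax, Bbc3 and Aen act in the execution of apoptosis. Bax (ENSMUSG00000003873, chr7:45461697-45466898, minus strand), whose protein opens the outer mitochondrial membrane, was at 72.1, 72.4 and 79.5 CPM in control, at 81.8, 79.3, 75.7 and 77.8 CPM with siRNA 1 and at 76.4, 80.8, 71.3 and 75.8 CPM with siRNA 2. Control library 3 stood among the siRNA libraries, and the groups overlapped in each comparison. Its log2 fold change was 0.075 with siRNA 1 (95% interval −0.046 to 0.19, adjusted p = 0.578) and 0.029 with siRNA 2 (−0.091 to 0.15, adjusted p = 0.826). Gm45808 shares 12.2% of the exon bases of Bax on the same strand, so reads there are uncertain.

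Bbc3 (ENSMUSG00000002083, chr7:16308393-16318205, plus strand) encodes PUMA, which frees BAX from its BCL2-like inhibitors. It was at 26.3, 25.8 and 26.6 CPM in control, at 31.8, 24.7, 24.6 and 27.5 CPM with siRNA 1 and at 27.4, 27.9, 24.7 and 24.7 CPM with siRNA 2. The control libraries lay close together and the siRNA libraries fell on both sides of them. PUMA mRNA had a log2 fold change of 0.042 with siRNA 1 (95% interval −0.14 to 0.22, adjusted p = 0.872) and −0.0027 with siRNA 2 (−0.18 to 0.18, adjusted p = 0.992). Without siRNA 1 library 1, the highest, the siRNA 1 value was −0.036.

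Aen (ENSMUSG00000030609, chr7:78895854-78911209, plus strand) encodes a nuclease that takes part in the breakdown of DNA in apoptosis. It was at 157.6, 151.0 and 159.8 CPM in control, at 170.5, 169.6, 163.8 and 169.1 CPM with siRNA 1 and at 157.0, 165.6, 155.8 and 156.0 CPM with siRNA 2. All siRNA 1 libraries were above control, while all siRNA 2 libraries but library 2 lay within the control range. The difference with siRNA 1 was not called (log2 fold change 0.11, 95% interval 0.012 to 0.20, adjusted p = 0.221, two-sided exact permutation p = 0.0571), nor was that with siRNA 2 (0.024, 95% interval −0.073 to 0.12, adjusted p = 0.823). For Bax, Bbc3 and Aen the upper interval bounds were 0.19, 0.22 and 0.20 with siRNA 1, below the lower bound of 0.35 for Cdkn1a.

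Trp53inp1, Phlda3 and Zmat3 act on signalling and RNA, and the first 2 also favour apoptosis. Trp53inp1 (ENSMUSG00000028211, chr4:11156431-11174379, plus strand), whose nuclear protein promotes p53 phosphorylation and autophagy, was at 168.4, 180.1 and 153.4 CPM in control, at 191.9, 206.8, 202.3 and 175.8 CPM with siRNA 1 and at 198.6, 174.3, 159.8 and 174.0 CPM with siRNA 2. The siRNA 1 libraries were the higher ones, but library 4 lay under the highest control, and the siRNA 2 libraries were spread around control. Trp53inp1 had a log2 fold change of 0.21 with siRNA 1 (SE 0.059, adjusted p = 0.0240, two-sided exact permutation p = 0.114) and of 0.076 with siRNA 2 (95% interval −0.044 to 0.20, adjusted p = 0.468). The siRNA 1 call ended without control library 1 (0.22, adjusted p = 0.0634) or 3 (0.16, adjusted p = 0.230) and without siRNA 1 library 2 (0.18, adjusted p = 0.133) or 3 (0.19, adjusted p = 0.0622). It ended too with TMM factors (0.19, adjusted p = 0.0513), DESeq2 (0.19, adjusted p = 0.104) and siRNA libraries 3 and 4 alone (0.18, adjusted p = 0.110), within a range of 0.00125 to 0.230. Between the siRNAs the value was −0.14 (adjusted p = 0.119), called without siRNA 1 library 4 (−0.18, adjusted p = 0.0472) and without siRNA 2 library 1 (−0.20, adjusted p = 0.0291).

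Phlda3 (ENSMUSG00000041801, chr1:135766119-135769136, plus strand) encodes a small membrane-binding protein that competes with the kinase AKT. It was at 40.9, 41.9 and 37.8 CPM in control, at 51.8, 49.5, 44.2 and 48.2 CPM with siRNA 1 and at 43.9, 50.2, 40.3 and 39.1 CPM with siRNA 2. All siRNA 1 libraries were above control, and with siRNA 2 libraries 1 and 2 were above it and libraries 3 and 4 within it. Means were 40.2 ± 2.14 (SD, n = 3), 48.4 ± 3.16 (n = 4) and 43.4 ± 4.98 CPM (n = 4). Phlda3 was called higher with siRNA 1 (log2 fold change 0.27, SE 0.077, adjusted p = 0.0340), its siRNA 2 value was 0.11 (95% interval −0.047 to 0.27, adjusted p = 0.414), and the difference between the siRNAs was −0.15 (adjusted p = 0.188). The siRNA 1 call ended without control library 1 (0.28, adjusted p = 0.0711), 2 (0.30, adjusted p = 0.0723) or 3 (0.22, adjusted p = 0.182) and without siRNA 1 library 1 (0.23, adjusted p = 0.116), 2 (0.25, adjusted p = 0.102) or 4 (0.27, adjusted p = 0.0618). It also ended with TMM factors (0.25), DESeq2 (0.24) and siRNA libraries 3 and 4 alone (0.20), the adjusted p running from 0.00387 to 0.242. With siRNA 2, Phlda3 was called higher with libraries 1 and 2 alone (0.23, adjusted p = 0.0465, the lowest of the alternatives) and had −0.020 with libraries 3 and 4 alone, and the difference between the siRNAs was called without siRNA 2 library 2 (−0.24, adjusted p = 0.0379).

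Zmat3 (ENSMUSG00000027663, chr3:32334792-32366014, minus strand) encodes a zinc finger protein that binds RNA and acts in splicing and mRNA decay. It was at 210.0, 219.4 and 201.5 CPM in control, at 230.9, 229.1, 225.8 and 219.6 CPM with siRNA 1 and at 244.3, 248.5, 227.8 and 228.1 CPM with siRNA 2. Both siRNA groups lay above control without overlap, siRNA 1 library 4 only just. Zmat3 was called higher with siRNA 2 (log2 fold change 0.17, SE 0.047, 95% interval 0.078 to 0.27, adjusted p = 0.0133), its siRNA 1 value was 0.11 (95% interval 0.010 to 0.20, adjusted p = 0.232), and between the siRNAs it was 0.068 (adjusted p = 0.395). The siRNA 2 call ended without control library 3 (0.14, adjusted p = 0.117) or siRNA 2 library 1 (0.16, adjusted p = 0.0515) and with DESeq2 (0.14, adjusted p = 0.0531) or siRNA libraries 3 and 4 alone (0.12, adjusted p = 0.187), within a range of 0.000551 to 0.187.

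**Figure D2:**
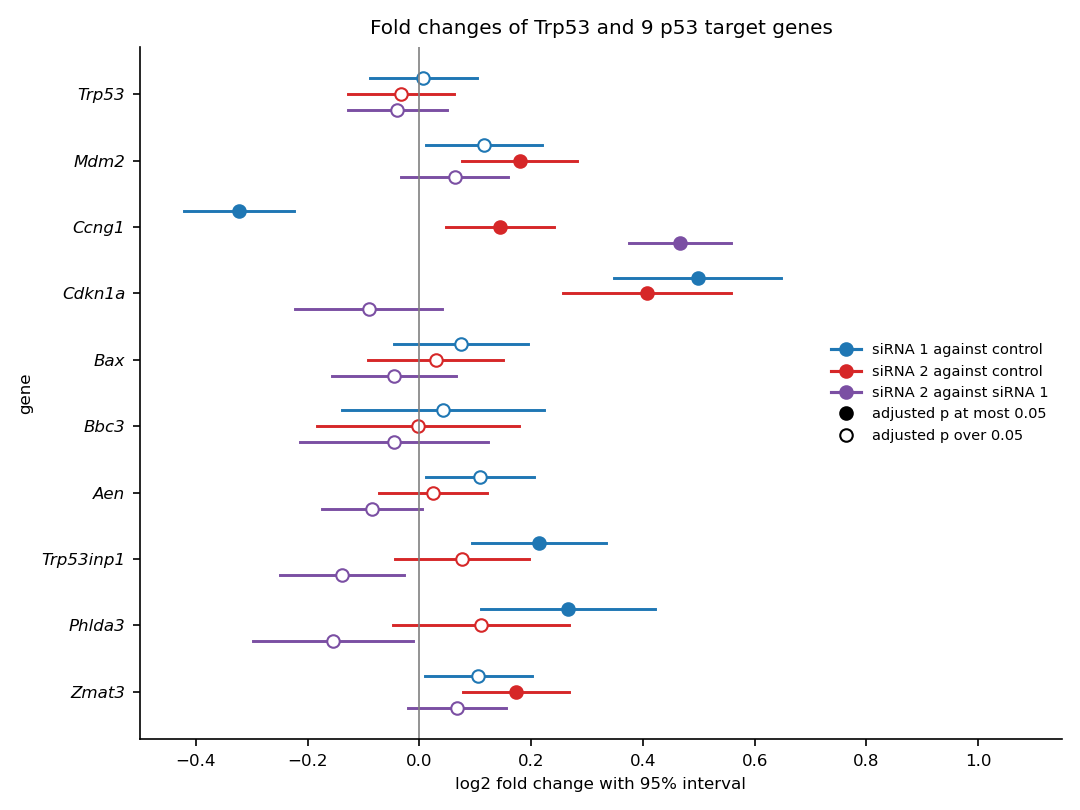
Log2 fold change (horizontal axis) of each of the 10 genes with siRNA 1 against control (blue), siRNA 2 against control (red) and siRNA 2 against siRNA 1 (purple), with lines for 95% intervals and filled points for an adjusted p of at most 0.05. Against control, Cdkn1a stands furthest to the right of the 10 with both siRNAs, at 0.50 and 0.41, and Ccng1 falls on opposite sides of 0, at −0.32 and 0.14.

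**Figure D3:**
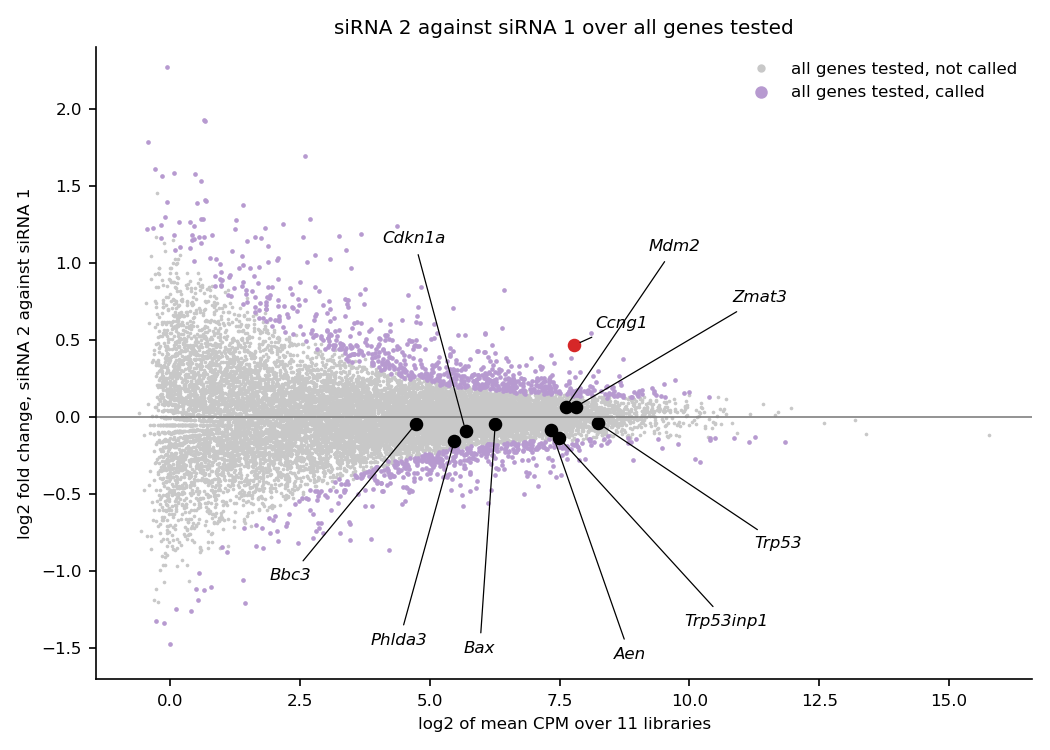
Log2 fold change of siRNA 2 against siRNA 1 (vertical axis) by log2 of the mean CPM over 11 libraries (horizontal axis) for all genes tested, called genes in purple and others in grey, with the 10 genes named in black or, where called, red. Ccng1, at 0.47, lies among the called genes, and the other 9 lie close to the line at 0, from −0.15 to 0.068.

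Other direct p53 targets were taken as a list of 35 genes, of which 33 were tested and Fas and Cd82 were not. Counts for this and the lists that follow stand beside all genes tested. Of these, 2.71% were called higher and 1.97% lower with siRNA 1, and 6.17% higher and 3.55% lower with siRNA 2. Between the siRNAs 4.49% were called higher with siRNA 2 and 2.96% lower. Against control, shares for TMM factors, DESeq2 and the pairs of libraries are those given above for the 10 genes. With siRNA 1, 2 were called higher (Plk2 and Apaf1) and 1 lower, with a median log2 fold change of 0.095, beside 0.024 for all genes. With siRNA 2, 6 were called higher and 4 lower, with a median of −0.011, beside 0.029 for all genes, while with TMM factors 6 were higher and 5 lower and with DESeq2 4 higher and 5 lower. Between the siRNAs 1 was higher with siRNA 2 (Perp) and 1 lower (Xpc). In all, 5 were called without siRNA 2 library 3, and 3 without control library 1, siRNA 2 library 2 or siRNA 2 library 4. The count was 1 without siRNA 1 library 2 and 0 with libraries 3 and 4 alone. Against control, 9 were called with siRNA 1 libraries 1 and 2 alone. With siRNA 1, 5 were called without siRNA 2 library 3, and 5 in a fit of only the groups compared. With siRNA 2, 6 were called without control library 3. The genes called lower were Pml with siRNA 1 and Gadd45a, Xpc, Ei24 and Epha2 with siRNA 2, and Dram1 was among the higher ones with siRNA 2; these 6 genes are named after their values were seen. Xpc was called with siRNA 2 under all 21 alternatives, and between the siRNAs (−0.29, adjusted p = 0.0112) its call ended without siRNA 1 library 2 (−0.26) and with libraries 3 and 4 alone (−0.23), over a range from 0.00596 to 0.327. Gadd45a lost its call without control library 2 (−0.23). The others depended more on single libraries, and their calls ended, among other settings, without control library 2 or 3, or siRNA 2 library 3 or 4 (Dram1, at 0.83 to 0.97), without any 1 control library, siRNA 1 library 2 or 4, or siRNA 2 library 2, 3 or 4 (Ei24, at −0.19 to −0.14), without control library 1 or 3, siRNA 1 library 2 or 4, or siRNA 2 library 1, 2 or 4 (Epha2, at −0.18 to −0.11), and without control library 2 or 3 or any 1 siRNA 1 library (Pml, at −0.16 to −0.12). Between the siRNAs Epha2 was not called (−0.13, adjusted p = 0.0787), except without siRNA 2 library 3 (−0.19) and with libraries 1 and 2 alone (−0.25). With siRNA 2, 16 of the 33 values were above 0 and 17 below, and with siRNA 1, 19 were above and 14 below.

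Perp, a membrane protein of cell junctions that takes part in p53-dependent apoptosis, rose with siRNA 2. It was at 22.6, 19.4 and 20.1 CPM in control, at 22.1, 20.9, 24.7 and 22.3 CPM with siRNA 1 and at 36.4, 33.5, 26.4 and 30.4 CPM with siRNA 2. All siRNA 2 libraries lay above all others, and the siRNA 1 libraries overlapped control. Its log2 fold change was 0.61 with siRNA 2 (adjusted p = 1.96e-05) and 0.12 with siRNA 1 (adjusted p = 0.597), and between the siRNAs it was 0.49 (adjusted p = 0.000171), a call that ended with siRNA libraries 3 and 4 alone (0.28, adjusted p = 0.253, in a range from 1.70e-06 to 0.253). The death receptor gene Tnfrsf10b (0.33, adjusted p = 0.000528) and the receptor gene Eda2r (0.32, adjusted p = 0.000779) were called higher with siRNA 2. They had values of 0.16 and 0.15 with siRNA 1 (adjusted p = 0.189 and 0.221). There Tnfrsf10b was called with libraries 1 and 2 alone (0.22) and Eda2r without control library 1 (0.26). For neither was the difference between the siRNAs called (adjusted p = 0.0654 and 0.0707), though it was for Tnfrsf10b without siRNA 2 library 3 (0.20) or 4 (0.20), and for Eda2r without control library 1 (0.17) or siRNA 2 library 2 (0.20) and in a fit of only the groups compared (0.17).

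Apaf1, the scaffold of the apoptosome, was called higher with siRNA 1 (0.30, adjusted p = 0.00207) and had 0.14 with siRNA 2 (adjusted p = 0.162, called without siRNA 2 library 3 at 0.20), a difference between the siRNAs that was not called (adjusted p = 0.0851). Plk2, a kinase of centriole duplication, was called higher with both (0.33, adjusted p = 0.00135, and 0.25, adjusted p = 0.0115), but its siRNA 2 call ended without control library 3 (0.18), without siRNA 2 library 1 (0.22) and with DESeq2 (0.23) or siRNA libraries 3 and 4 alone (0.22), the adjusted p running from 0.00223 to 0.165 over the alternatives. Pmaip1, which encodes NOXA, had 0.42 with siRNA 2 (adjusted p = 0.00312), with libraries that overlapped control, and 0.28 with siRNA 1 (adjusted p = 0.104). Its siRNA 2 call ended with libraries 3 and 4 alone (0.29), over a range of adjusted p from 5.38e-06 to 0.0846. With siRNA 1 it was called without siRNA 2 library 3 (0.28), in a fit of only the groups compared (0.28) and with libraries 1 and 2 alone (0.37). Between the siRNAs it had 0.15 (adjusted p = 0.356) and was called without siRNA 2 library 3 (0.26).

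Of 20 genes that regulate p53, 19 were tested and Trp63 was not. With each siRNA, 1 was called higher and 1 lower, and medians were −0.0080 and −0.022, beside 0.024 and 0.029 for all genes. With siRNA 1, TMM factors gave 2 lower genes and no higher one, DESeq2 gave 1 lower gene, and 4 were called with libraries 1 and 2 alone. Trp53bp1, which binds p53 and marks DNA breaks, was the higher one with both (0.17, adjusted p = 0.0248, and 0.17, adjusted p = 0.0171). Its siRNA 1 call ended without control library 2 (0.16) or 3 (0.18), without siRNA 1 library 1 (0.16) or 2 (0.14), with TMM factors (0.15) and with siRNA libraries 3 and 4 alone (0.099), over a range of adjusted p from 0.000127 to 0.386. Its siRNA 2 call ended without control library 2 (0.15) or 3 (0.17), without siRNA 2 library 1 (0.15) and with libraries 3 and 4 alone (0.12), over a range from 0.000485 to 0.135, and DESeq2 called it with neither siRNA. The lower genes were Atm, the kinase that signals DNA breaks to p53, with siRNA 1 (−0.20, adjusted p = 0.0136) and Sirt1, a deacetylase of p53, with siRNA 2 (−0.23, adjusted p = 0.0128). The call of Atm ended without control library 1 (−0.19) or 2 (−0.17), without siRNA 1 library 2 (−0.19) and with siRNA libraries 3 and 4 alone (−0.16), at an adjusted p of 0.00296 to 0.123 over the alternatives, and that of Sirt1 ended without control library 2 (−0.20) and with libraries 3 and 4 alone (−0.17), at 0.000476 to 0.105. With siRNA 1, Sirt1 was called lower without siRNA 1 library 4 (−0.22), with a block for replicate number (−0.22) and with libraries 1 and 2 alone (−0.25), at 0.00485 to 0.639. Between the siRNAs neither was called (adjusted p = 0.114 and 0.577). Mdm4, the partner of MDM2 in holding p53 back, had 0.092 and −0.014 (adjusted p = 0.253 and 0.891) and between the siRNAs −0.11 (adjusted p = 0.0945), called lower with libraries 1 and 2 alone (−0.16), and Wrap53, the neighbour of Trp53 on the other strand, had −0.12 and −0.11 (adjusted p = 0.409 and 0.376).

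Ribosomal proteins and nucleolar factors that bind MDM2 when ribosome assembly fails formed a list of 13, of which 12 were tested. All 12 had values below 0 with both siRNAs, also with TMM factors and with DESeq2. With siRNA 1, 0 of the 12 were called by edgeR, 3 had an unadjusted p under 0.05 and DESeq2 called 1, and the median was −0.076. With siRNA 1 edgeR called 1 without siRNA 1 library 3 (3.17% of all genes higher and 2.16% lower) and 1 with no filter (1.32% and 0.964%). It called 4 with libraries 1 and 2 alone (5.00% and 3.51%), Ncl (−0.14), Rpl5 (−0.16) and Rpl11 (−0.15) among them. The summed level of the 12 genes was 7415, 7565 and 7193 CPM in control, 6640, 6813, 7317 and 7123 CPM with siRNA 1 and 6919, 6730, 6545 and 7098 CPM with siRNA 2. Libraries 1 and 2 of siRNA 1 and all siRNA 2 libraries lay below control, while library 3 of siRNA 1 lay within it and library 4 just under it. With siRNA 2, 3 were called lower, 5 with TMM factors and 6 with DESeq2, and the median was −0.10. Those called were Rps27 (−0.20, adjusted p = 0.00259), Rps3 (−0.16, adjusted p = 0.00796) and the nucleolar protein gene Ncl (−0.18, adjusted p = 0.00457), whose call ended without control library 2 (−0.16), the adjusted p running from 0.000174 to 0.0542. Between the siRNAs these genes were not called (adjusted p = 0.0957, 0.210 and 0.111), except Ncl without siRNA 2 library 4 (−0.13). Rpl5 and Rpl11, whose proteins bind MDM2 together with 5S RNA, had −0.097 and −0.12 with siRNA 1 (adjusted p = 0.256 and 0.0999). With siRNA 2 they had −0.12 and −0.13 (adjusted p = 0.0728 and 0.0508), and both were called lower with TMM factors and DESeq2. Rpl11 was also called with siRNA 2 without siRNA 1 library 1 (−0.13) or 3 (−0.13). It was called there too with exactTest (−0.13), the filterByExpr filter (−0.13) and Gm26917 left out of library sizes (−0.14). With siRNA 1, DESeq2 called Rpl11 (−0.15).

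**Figure D4:**
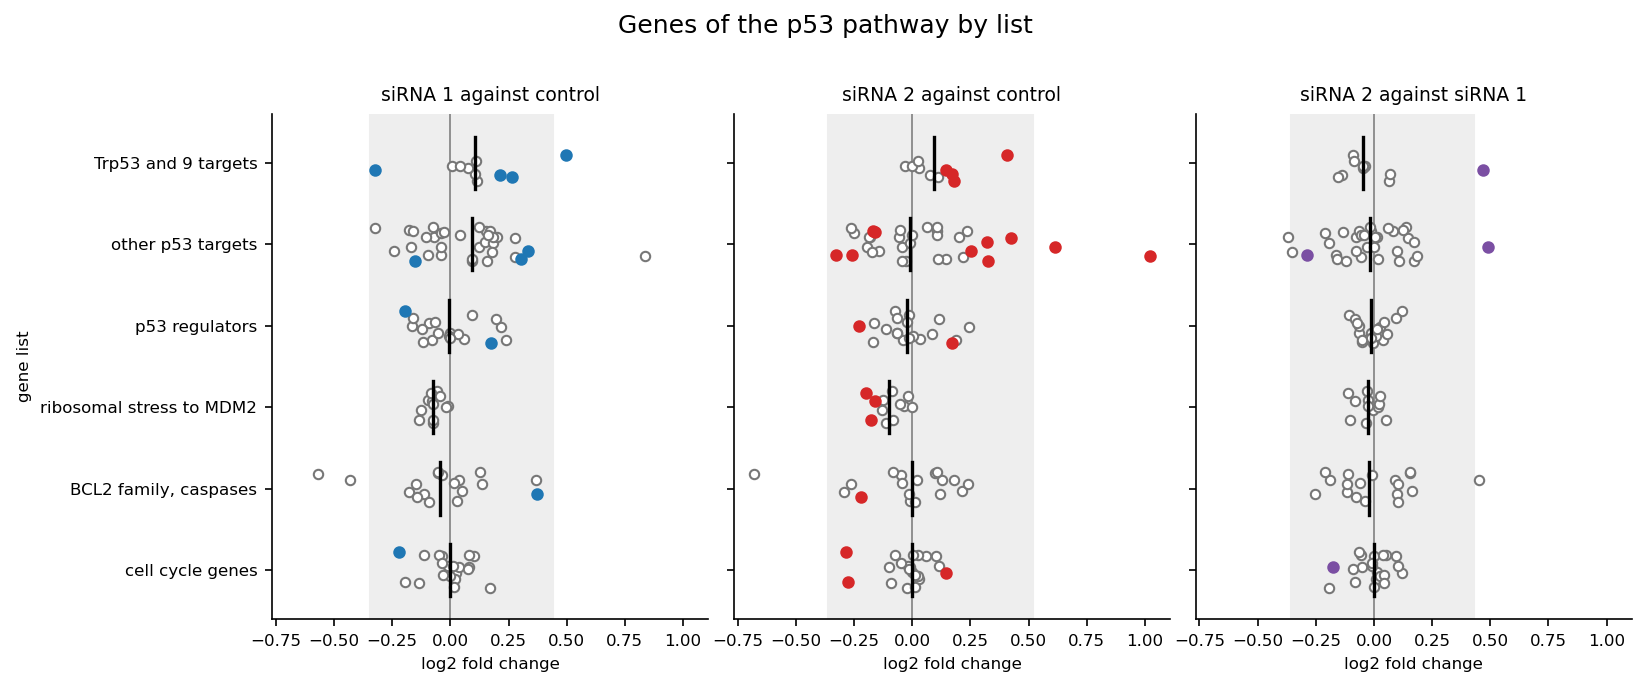
Log2 fold change (horizontal axis) of single genes of the p53 lists with each siRNA against control and of siRNA 2 against siRNA 1, with filled points for called genes, black ticks for list medians and a grey band between percentiles 5 and 95 of all genes tested. The 10 genes have medians of 0.11 and 0.094 against control, and the 12 ribosomal stress genes all lie below 0 with both siRNAs.

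Genes of the BCL2 family and of caspase activation, which carry out or restrain apoptosis, numbered 19, of which 18 were tested. With siRNA 1 the called gene was Bmf, a BCL2 antagonist (0.37, adjusted p = 0.00963), which was not called without control library 1 (0.34) or 3 (0.34), siRNA 1 library 2 (0.34) or with siRNA libraries 3 and 4 alone (0.30), at an adjusted p of 0.00249 to 0.154 over the alternatives. With siRNA 2 it was Bcl2l11, which encodes the BCL2 antagonist BIM (−0.22, adjusted p = 0.0116) and was not called without control library 1 (−0.20) or 2 (−0.20), siRNA 2 library 1 (−0.20) or with libraries 3 and 4 alone (−0.20), at 0.00401 to 0.0851. Neither was called between the siRNAs (adjusted p = 0.0543 and 0.457), but Bmf was with TMM factors (−0.26), exactTest (−0.25), a block for replicate number (−0.25) and Gm26917 left out of library sizes (−0.26), and without siRNA 1 library 3 (−0.28) or siRNA 2 library 1 (−0.29). Without siRNA 2 library 3, and with libraries 1 and 2 alone, 2 genes of the list other than these were called between the siRNAs. There 5.11% and 5.13% of all genes were called higher and 3.45% and 4.28% lower. Against control the count was 2 with siRNA 1 without siRNA 1 library 3 (3.17% of all genes higher and 2.16% lower). It was 2 with siRNA 2 without siRNA 2 library 3 (6.37% and 4.03%). With libraries 1 and 2 alone it was 2 for either siRNA. Medians of this list were −0.045 and 5.4e-05 for siRNA 1 and siRNA 2, beside 0.024 and 0.029 over all genes. Values above 0 numbered 8 of 18 and 9 of 18, beside 9129 and 9182 of 16073 genes. With TMM factors 7 were above 0 and 11 below with either siRNA, beside 8211 and 7862 over all genes.

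Cell cycle genes that are lowered through p21 in other cells were listed as 21 genes, all tested. Their median log2 fold change was −0.0019 with siRNA 1 and −0.0014 with siRNA 2, beside 0.024 and 0.029 for all genes, and 10 of 21 values were above 0 with each. With TMM factors 7 were above 0 and 14 below with either siRNA, beside 8211 above and 7862 below over all genes. With DESeq2 and siRNA 2, 4 were above and 17 below, beside 8037 and 8036 over all genes. Mybl2, a transcription factor of cycling cells, was called lower with both siRNAs (−0.22, adjusted p = 0.00340, and −0.29, adjusted p = 6.57e-05), though not with siRNA 1 without control library 3 (−0.17), where the adjusted p ran from 5.67e-05 to 0.0883 over the alternatives. E2f1, which drives entry into S phase, was called lower with siRNA 2 (−0.28, adjusted p = 0.0135), but not without control library 2 (−0.20) or 3 (−0.27) or with siRNA libraries 1 and 2 alone (−0.22), over a range from 0.00425 to 0.164. Ccna2, the cyclin of S phase and G2, was called higher with siRNA 2 (0.15, adjusted p = 0.0479), a call that ended without control library 1 (0.14) or 3 (0.11), siRNA 1 library 2 (0.15) or 4 (0.15), or siRNA 2 library 1 (0.14), 2 (0.13) or 4 (0.14), and with TMM factors (0.12), DESeq2 (0.12) and siRNA libraries 3 and 4 alone (0.12) among other settings, over a range of adjusted p from 0.0146 to 0.252. Between the siRNAs Ccna2 had 0.12 (adjusted p = 0.0974) and was called without siRNA 2 library 3 (0.14) and with libraries 1 and 2 alone (0.20). The gene of this list called between the siRNAs was Ccnb2, named after its values were seen and lower with siRNA 2 (−0.18, adjusted p = 0.0428). Its call held under 10 of 21 alternatives and ended with DESeq2 (−0.18), with libraries 1 and 2 (−0.12) or 3 and 4 alone (−0.24), and without control library 2 (−0.18), siRNA 1 library 1 (−0.16) or 4 (−0.16), or siRNA 2 library 1 (−0.18), 3 (−0.14) or 4 (−0.18), over a range from 0.0254 to 0.349.

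Genes most like a member over the 11 libraries were searched among 10839 genes by Pearson's r of log2 CPM, as a description. For Trp53 they were Spred2 (0.899), Tob2 (0.883) and Hist2h3b (0.877). For Cdkn1a they were Smarce1 (0.960), Lef1 (0.954) and Ankfy1 (0.952), and for Mdm2 Atxn10 (0.967), Cyb5b (0.949) and Mex3c (0.919). Ccng1 was added after its values were seen, and the genes most like it were Mmgt1 (0.962), Rpl10l (0.961) and Gab1 (0.961). None of these 12 genes is among the 10 p53 genes. So few of the 10839 genes were kept that this says little about the members. With other members, r ran from −0.347 (Ccng1) to 0.838 (Phlda3) for Cdkn1a and from −0.126 (Trp53) to 0.816 (Zmat3) for Mdm2. For Trp53 it ran from −0.346 (Ccng1) to 0.518 (Bbc3), and for Ccng1 from −0.717 (Aen) to 0.263 (Mdm2).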

How the data were processed

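The authors deposited counts of reads per Ensembl gene for each library. The methods name Cutadapt for trimming, STAR for alignment to GRCm38, Picard for removing duplicates and featureCounts for counting, in versions not given in the sources used here. Closing summary lines, absent from the file of siRNA 2 library 4, were set aside. They have the layout of HTSeq-count, so the counting tool and its rules for strand and overlap are uncertain. Symbols and positions came from GENCODE M21, and promoters from RefSeq.

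Genes over 1 CPM in at least 4 libraries (16073) were tested with edgeR 4.0.16 in R 4.3.3 (quasi-likelihood, 1 model of 3 groups, library sizes from total counts), with Benjamini-Hochberg adjustment over all genes and calls at 0.05. Alternatives were TMM factors, DESeq2 1.42.0, exactTest, a filterByExpr filter (15560 genes), no filter beyond 1 read (32792 genes), a fit of only the groups compared, replicate number as a block, library sizes without Gm26917, and each library left out. The code was tested on simulated data. Python 3.11.15 made tables and figures.

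All 10 genes are named, then from each other list up to 6 genes called with either siRNA, by lowest adjusted p, with Mdm4, Rpl5, Rpl11 and Wrap53 always. Members and lists were chosen with earlier results of these data known.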

Additional observations from a re-analysis of the deposited data

Results flagged for a closer look

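Ccng1 differed between the siRNAs by a log2 fold change of 0.47, being lower than control with siRNA 1 and higher with siRNA 2, and Perp differed by 0.49, both by the direct test of siRNA 2 against siRNA 1. The call of Perp ended with siRNA libraries 3 and 4 alone (0.28), while that of Ccng1 held there (0.40). In 4 groups of 4 libraries, 1 library stood far from the other 3. For Aen, siRNA 2 library 2 was the highest of its group at 165.6 CPM. For Ncl and Sirt1, siRNA 2 library 4 was the highest, at 1922 and 106.8 CPM. For Plk2, siRNA 1 library 1 was the highest at 88.5 CPM. Chance flags about 1 in 20 such groups, and 62 were examined.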

How the results depend on the processing

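Over the 21 alternatives Cdkn1a kept its call with both siRNAs, and Ccng1 with siRNA 1 and between the siRNAs. Members called numbered 4 with siRNA 1, 4 with siRNA 2 and 1 between the siRNAs. With TMM factors the first counts were 2 and 2, with DESeq2 2 and 1, and with siRNA libraries 3 and 4 only 2 and 1. Leaving out 1 library gave 2 to 4, 1 to 4 and 1 to 2. All genes called numbered 751 with siRNA 1, 1562 with siRNA 2 and 1196 between them. DESeq2 gave 958 and 740 for the last 2 comparisons. Libraries 1 and 2 only gave 1319 with siRNA 1, and libraries 3 and 4 only 348, 1021 and 270. Leaving out 1 library gave 355 to 852, 807 to 1658 and 724 to 1365. The alternatives with libraries 1 and 2 or 3 and 4 were chosen after seeing the data.

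Of calls with siRNA 1, 57.9% were higher, 46.4% with TMM factors and 38.2% with DESeq2. With siRNA 2 the shares were 63.4%, 49.8% and 42.7%. The median log2 fold change of all genes with siRNA 1 was 0.0244, 0.00425 with TMM factors and 0.000485 with DESeq2. The siRNA 2 medians were 0.0289, 0.00403 and 4.04e-05. Though these moves were small, the calls of Mdm2 and Ccng1 with siRNA 2 ended under both scalings. So did those of Trp53inp1 and Phlda3 with siRNA 1.

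Log2 fold changes that turned sign were small. With TMM factors Trp53 with siRNA 1 was −0.013 and Aen with siRNA 2 −0.00099. With DESeq2 Trp53 with siRNA 1 was −0.017, and Bax and Aen with siRNA 2 −0.00018 and −0.0050. With libraries 1 and 2 only, Trp53 was 0.017 with siRNA 2 and 0.017 between the siRNAs, Bbc3 with siRNA 2 0.078 and Ccna2 with siRNA 1 −0.030. With libraries 3 and 4 only, Mdm2 between the siRNAs was −0.012, Bbc3 with siRNA 1 −0.010, and with siRNA 2 Trp53inp1 was −0.0039, Phlda3 −0.020, Bax −0.019, Aen −0.0014 and Mdm4 0.016. Leaving out 1 library gave −0.034 to 0.047 (Trp53), −0.036 to 0.087 (Bbc3) and −0.0054 to 0.066 (Ccna2) with siRNA 1, −0.074 to 0.0068 (Trp53), −0.0020 to 0.076 (Bax), −0.038 to 0.026 (Bbc3) and −6.64e-05 to 0.041 (Aen) with siRNA 2, and −0.089 to 0.034 (Bbc3) between the siRNAs. Some other genes ranged more widely over the alternatives. Dram1 between the siRNAs (0.19) ran from −0.17 to 0.48. With siRNA 1, Dcn (0.14) ran from −0.054 to 0.32 and Xpc (−0.042) from −0.12 to 0.030. Causes were not tested, beyond fewer libraries in some fits.

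With replicate number as a block, 840, 1486 and 1242 genes and 4, 3 and 1 members were called in the 3 comparisons, the call of Ccng1 with siRNA 2 ended (0.15, adjusted p = 0.0529), and Bbc3 with siRNA 2 was 0.0089. Deviations of libraries with the same number correlated at a mean of 0.0084 (10 pairs), against −0.0028 for other pairs. This check showed no sign that the numbers pair the libraries, and how the numbers were given is not stated.

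Values of single genes over the alternatives were tallied for the members in every comparison. Genes that the naming rule above took from the other lists were tallied against control only. Of these values, 1368 kept direction and call, 89 lost the call, 26 gained it and 29 turned sign. The tally leaves out values of those genes between the siRNAs and all values of genes named after they were seen. Some calls among the values left out also changed. Of 315 counts of called genes in lists, 204 were equal to the reported count, 52 differed by at most 1.5 times and 59 by more. A search of a wider window around each start for p53 sites was not run, as no genome was used here.

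With 3 control libraries and 6738478 to 8382318 counted reads per library, the smallest change called among the 10 genes was 1.11-fold. The controls are shared by both comparisons. Cmtr1 mRNA overlapped between groups, p53 protein was not measured, and counts of calls depended on which siRNA libraries were used.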

Other observations

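Cdkn1a lies on the same chromosome as Cmtr1, and its end is 559868 bases before the start of Cmtr1. Of the 10 other tested genes within 200 kb of Cdkn1a, edgeR called 0 for siRNA 1 (1 had an unadjusted p under 0.05, and DESeq2 called 0). It called 1 with siRNA 2, Gm16196, named after its values were seen (2 had an unadjusted p under 0.05, and DESeq2 called 0). Of all genes tested, edgeR called 2.71% higher and 1.97% lower with siRNA 1, and 6.17% and 3.55% with siRNA 2, so so few calls are no result about this region.

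Fibroblast markers called with siRNA 2 are given here as values chosen after they were seen. Col1a1 had means of 8.65, 8.54 and 14.5 CPM in control, siRNA 1 and siRNA 2 libraries (log2 fold change with siRNA 2 0.75, adjusted p = 6.42e-05), and Dcn 1.80, 1.99 and 3.94 CPM (1.13, adjusted p = 0.00209). Both were also called higher with siRNA 2 than with siRNA 1 (0.76 and 0.99), where Pdgfra (−0.18) and Col3a1 (−0.57) were below 0 and not called. Against control, DESeq2 called Col1a1 with siRNA 2 and gave Dcn and Col3a1 no adjusted p. Col3a1, with 2 to 17 reads per library, was called lower with siRNA 2 (−1.42, adjusted p = 0.0180), but not without control library 1 (−1.12) or siRNA 2 library 2 (−1.32) or 4 (−1.15).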
